A study of Mus musculus with 6 samples.

Results

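Cytosolic ribosomal protein genes encode the proteins of the ribosome, the particle that translates messenger RNA. They were taken from the deposited count table by symbol: every symbol that starts with Rpl or Rps followed by a digit, plus Rpsa, Rplp0, Rplp1 and Rplp2, leaving out the Rps6k kinases and symbols that contain -ps. This gave 87 of 24062 symbols. By their names, 31 encode canonical proteins of the small subunit and 46 canonical proteins of the large subunit (3 of them the P-stalk), 9 are paralogs with a related sequence, and 1, Rps19bp1, encodes a protein that binds a ribosomal protein and is not one itself.

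The tissue was aortic arch plaque, taken in bulk from C57BL/6 mice that lack the low-density lipoprotein receptor and develop atherosclerosis on a fat-rich diet. Feeding consisted of 12 weeks on a high-fat diet (TD88137), followed by 3 weeks on the diet the labels call LFD. The ABT263 group (3 libraries) received ABT263 at 100 mg/kg once a day by intraperitoneal injection, which the labels place in week 1 of LFD, and the Vehicle group (3 libraries) is labelled vehicle-treated. ABT263, or navitoclax, inhibits anti-apoptotic proteins of the BCL-2 family and is used to remove senescent cells. The groups share the receptor knockout and both diets. Sex and age are not given in the labels used here, nor whether each library came from a separate animal, so p-values measure the spread between these libraries, which may in part be technical.

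Ribosomal proteins assemble with ribosomal RNA in the nucleolus, and each is needed in about equal number, so cells make them together. Their messenger RNAs begin with a C and a stretch of pyrimidines, the terminal oligopyrimidine (TOP) motif, through which mTOR signalling and the binding protein LARP1 control their translation. Their promoters are also known for binding sites of ETS-family factors such as GABP. Plaque holds macrophages, lymphocytes, endothelial cells and smooth muscle cells, and their demand for ribosomes rises with growth, activation and secretion.

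Start sites of the members are shown as background to the family. Members with and without the motifs were not compared, so a part of the motifs in the levels below was not tested. RefSeq promoter sequences (GRCm38.p6) were matched by symbol for 57 of the 77 canonical members and gave 67 start sites. A C followed by at least 7 bases that are each C or T, on the transcribed strand and within 15 bases on either side of the annotated start, was found at 25 of the 67 (37.3%), against 3041 of all 32851 promoters in the table (9.26%). The 30-base windows below run from 15 bases before the start to 15 after it, with that run in capitals. Rpsa and Rplp0, the last pair, have no such run, and for Rps24 only 1 of its annotated starts is shown. Shorter runs were not counted, and a counted run may lie wholly before the annotated start.
Rps6 (chr4:86857353-86857382, minus strand): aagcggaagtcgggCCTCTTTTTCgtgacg
Rpl13a (chr7:45128731-45128760, minus strand): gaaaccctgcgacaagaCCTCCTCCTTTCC
Rplp2 (chr7:141447636-141447665, plus strand): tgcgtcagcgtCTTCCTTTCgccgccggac
Rps24 (chr14:24490663-24490692, plus strand): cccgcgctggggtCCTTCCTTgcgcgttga
Rps27 (chr3:90213634-90213663, minus strand): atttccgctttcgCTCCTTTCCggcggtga
Rpl35 (chr2:39005117-39005146, minus strand): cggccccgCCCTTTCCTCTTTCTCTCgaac
Rpsa (chr9:120127751-120127780, plus strand): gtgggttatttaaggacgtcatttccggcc
Rplp0 (chr5:115559452-115559481, plus strand): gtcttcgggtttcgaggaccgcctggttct

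The core of the ETS site, CCGGAAG on either strand, was in 25 of the 67 promoters of 300 bases (37.3%), against 2910 of all 32851 (8.86%). The exact string TATAAA of the TATA box was in the 50 bases before the start of 0 of the 67, against 2.63% of all promoters. Variants of the box, such as tatataag in the Rps18 sequence below, were not counted. The 100 bases before the start of Rps6 and Rps18 carry the ETS core, in capitals.
Rps6 (chr4:86857368-86857467, minus strand): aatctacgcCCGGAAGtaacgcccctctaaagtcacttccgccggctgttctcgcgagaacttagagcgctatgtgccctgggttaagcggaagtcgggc
Rps18 (chr17:33955666-33955765, minus strand): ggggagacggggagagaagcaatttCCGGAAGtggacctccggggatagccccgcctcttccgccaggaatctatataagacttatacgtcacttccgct
An annotated start may differ from the start used in plaque, and a match is a description of these letters, not of binding.

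Library totals ran from 62930547 to 91688075 counts with ABT263 and from 67236568 to 110452098 with Vehicle. ABT263 replicate 2 and Vehicle replicate 2 stood apart from the rest. The block, the lists and the genes whose values turn on these libraries are also given without them, and ranges over left-out libraries stand at the end. The 6 adipocyte markers summed to 3924 CPM (counts relative to the library total, after TMM scaling) in ABT263 replicate 2, against 121 to 201.3 CPM in the other ABT263 libraries and 63.4 to 286 CPM with Vehicle. The labelled tissue was checked by smooth muscle markers (8 of 8 detected, 2407 to 15763 CPM in sum with ABT263 and 2608 to 3593 with Vehicle) and macrophage markers (10 of 10 detected, 3480 to 7094 CPM with ABT263 and 7328 to 14634 with Vehicle). The macrophage sums did not overlap between the groups, nor did those of some other lists, such as the T cell and B cell markers below. Singly, 6 of the 10 macrophage markers did not overlap and were lower with ABT263, against 6.31% of all genes.

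Ribosomal protein genes did not differ between the groups beyond the spread between libraries. Their levels moved together from library to library, and a single Vehicle library, replicate 2, stood above the rest for nearly all of them. The 87 members together took 4.47%, 3.92% and 2.89% of all counts in ABT263 replicates 1 to 3, against 3.06%, 7.12% and 3.42% in Vehicle replicates 1 to 3. As summed CPM this was 42332, 36542 and 29875 with ABT263 and 32949, 72926 and 34075 with Vehicle. Vehicle replicate 2 was the highest and ABT263 replicate 3 the lowest library, and the groups overlapped. In bulk tissue a change in the share of cell types that are rich in ribosomes and a change in ribosomal protein RNA per cell cannot be told apart.

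Of the 87 members, 83 passed the filter on low counts, and the edgeR quasi-likelihood test, adjusted over all 15222 genes tested, called 0 of the 83 (0.0% of all genes were called). DESeq2 and limma-voom called 0 members as well, where DESeq2 called 0.973% of the genes it adjusted and limma-voom 0.0% of all genes, or 5.62% at an unadjusted p under 0.05. At an unadjusted p under 0.05 edgeR listed 0 members, against 8.38% of all genes. Groups did not overlap for 1 of the 83 tested members, Rps27, which was lower with ABT263, against 12.0% of all genes (6.31% lower and 5.68% higher). Fold changes were negative for 81 of 83 members and centred on a log2 value of -0.39 for the small subunit and -0.37 for the large subunit with the P-stalk, while the median over all genes was 0.0008. Without Vehicle replicate 2 the same medians were 0.11 and 0.11, with 74 of 83 members positive, 0 called and 0 at an unadjusted p under 0.05 (7.20% of all genes), and the median over all genes was 0.036.

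**Figure D1:**
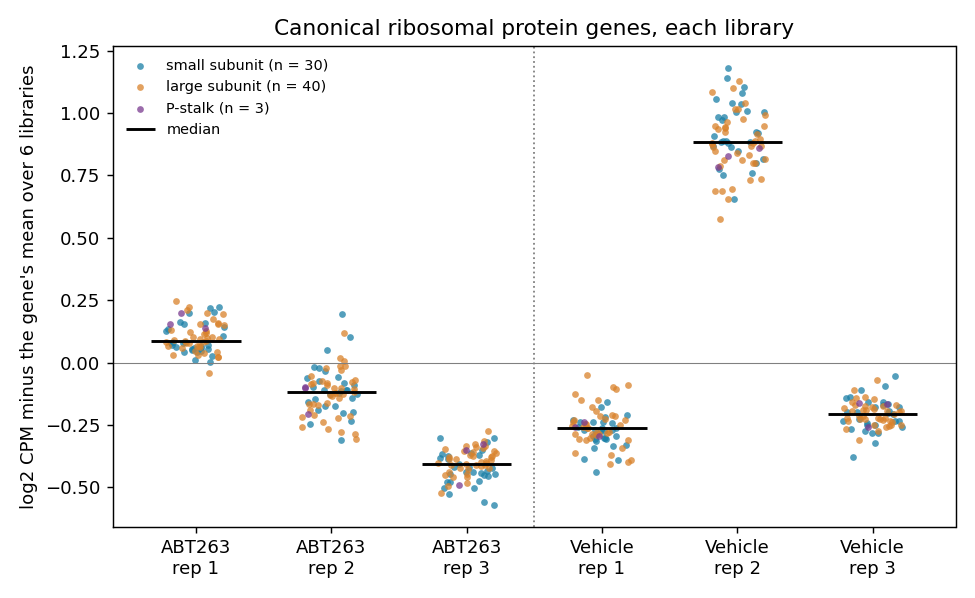
Each point is 1 of 73 canonical ribosomal protein genes at 10 CPM or more, as log2 CPM in a library minus that gene's mean over the 6 libraries (y axis), by library (x axis); black lines are medians. All 73 genes were highest in Vehicle replicate 2, and 71 were lowest in ABT263 replicate 3.

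The movement as a block was seen in 73 canonical members whose mean level was at least 10 CPM (30 of the small and 43 of the large subunit). Each of the 73 was highest in Vehicle replicate 2, which was the highest library for 30.4% of the 9754 genes of all kinds at that level. The library was singled out after its values had been seen. Its level was 1.37 to 2.17 times that of the next highest library (median 1.74), and it exceeded every other library by more than 1.5 times for 66 of the 73, against 6.44% of all genes at that level. ABT263 replicate 1 came second for 68 of the 73 and ABT263 replicate 3 last for 71. The 2 other Vehicle libraries lay between ABT263 replicates 2 and 3 in the median over the block, which stood at 9.01, 8.90 and 8.56 log2 CPM with ABT263 and at 8.67, 9.85 and 8.73 with Vehicle.

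Proportions between most members varied less than the block. The block median had an SD of 0.47 log2 units over the 6 libraries, whereas the log2 ratio of a member to that median had an SD of 0.020 to 0.18 (median 0.088), and it was under 0.1 for 45 of the 73. Much of the block's SD came with Vehicle replicate 2: over the other 5 libraries the block median had an SD of 0.18, and the ratio of a member to it an SD of 0.013 to 0.19 (median 0.071). Over all 6 libraries Rps6 was among the closest followers (SD 0.022), and Rpl11 stood at 0.030. The widest departures were those of Rpl29 (SD 0.18) and Rps14 (SD 0.18). Relative to the block and to its own mean, Rps14 was 0.25 log2 units up in ABT263 replicate 2, the library rich in adipocyte genes, 0.17 down in ABT263 replicate 3 and 0.19 up in Vehicle replicate 2. Small subunit CPM over large subunit CPM came to 0.729, 0.752 and 0.713 with ABT263 and 0.711, 0.765 and 0.726 with Vehicle, so the libraries of both groups overlapped.

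Counted by role, 0 of 31 small subunit genes and 0 of 45 tested large subunit genes passed the test. Rps6, a protein of the small subunit, is the classical substrate of the S6 kinases downstream of mTOR. It had 794, 706 and 583 CPM with ABT263, against 623, 1384 and 639 CPM with Vehicle. The groups overlapped, with Vehicle replicate 2 above all other libraries (log2 fold change -0.35, SE 0.39, edgeR adjusted p = 0.862). Rps19, whose human counterpart is mutated in Diamond-Blackfan anaemia, had 463, 390 and 300 CPM with ABT263 and 338, 873 and 370 CPM with Vehicle, and the groups overlapped in the same way (log2 fold change -0.46, SE 0.42). Rpsa, which also serves as a precursor of a laminin receptor, had 1167, 1022 and 823 CPM with ABT263 and 861, 1959 and 876 CPM with Vehicle. ABT263 replicates 1 and 2 lay inside the Vehicle range and replicate 3 below it (log2 fold change -0.30, SE 0.41).

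Rps2, a protein near the entry of the messenger RNA channel, stood nearest to no change among the 73. It had 1037, 841 and 721 CPM with ABT263 and 741, 1498 and 713 CPM with Vehicle (log2 fold change -0.18, SE 0.38), with every ABT263 library inside the Vehicle range. Rps14, a platform protein, had 833, 921 and 546 CPM with ABT263 and 613, 1700 and 619 CPM with Vehicle (log2 fold change -0.35, SE 0.49). It was 1 of 5 block members for which ABT263 replicate 2 and not replicate 1 came second. Rps24 had 638, 566 and 438 CPM with ABT263 and 467, 1385 and 508 CPM with Vehicle, with 1 Vehicle library far above the rest (log2 fold change -0.52, SE 0.47). Rps15a had 376, 321 and 265.1 CPM with ABT263 and 311, 752 and 299 CPM with Vehicle (log2 fold change -0.50, SE 0.41). Rps13 was at -0.49 (SE 0.38) and, without Vehicle replicate 2, at -0.0025.

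All 43 large subunit genes of the block, P-stalk included, were highest in Vehicle replicate 2. Rpl32, with the most negative fold change of the 73, had 472, 368 and 333 CPM with ABT263 and 369, 978 and 383 CPM with Vehicle (log2 fold change -0.56, SE 0.44, edgeR adjusted p = 0.776). Without Vehicle replicate 2 it was 0.054 (SE 0.22). Rpl5 and Rpl11, which bind a small ribosomal RNA and can restrain MDM2, the ubiquitin ligase of p53, did not pass the test either. Rpl5 had 709, 682 and 541 CPM with ABT263 and 579, 1211 and 584 CPM with Vehicle, and Rpl11 had 531, 486 and 387 CPM with ABT263 and 422, 994 and 443 CPM with Vehicle. Both sets overlapped between the groups (log2 fold changes -0.30, SE 0.37, and -0.40, SE 0.39).

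Rpl29 had the smallest p of the large subunit (unadjusted p = 0.165, adjusted p = 0.714 by edgeR). It had 260, 207 and 202 CPM with ABT263 and 246, 424 and 243 CPM with Vehicle (log2 fold change -0.45, SE 0.29). ABT263 replicate 1 lay above Vehicle replicates 1 and 3, so these groups overlapped too. Its fold change without Vehicle replicate 2 was -0.14 (SE 0.18), and it was among the 7 of 73 block members that stayed below 0 in that fit, which ran from -0.14 to 0.31 with SEs of 0.18 to 0.30.

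Rpl3 and Rpl10 help shape the catalytic core and its surroundings, and Rpl13a is known in human cells also for silencing translation of inflammatory messenger RNAs. Rpl10 had 1070, 858 and 818 CPM with ABT263 and 953, 1867 and 874 CPM with Vehicle (log2 fold change -0.43, SE 0.37), and Rpl3 had 838, 714 and 631 CPM with ABT263 and 745, 1518 and 746 CPM with Vehicle (log2 fold change -0.46, SE 0.37). For Rpl13a the levels were 652, 679 and 489 CPM with ABT263 and 529, 1356 and 588 CPM with Vehicle (log2 fold change -0.44, SE 0.42). The groups overlapped for all 3, and without Vehicle replicate 2 the fold changes were 0.00048, -0.037 and 0.12 in that order.

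The P-stalk, a flexible arm of Rplp0, Rplp1 and Rplp2 that calls elongation factors to the ribosome, is described with all 3 of its genes. Rplp0 had 1452, 1177 and 1008 CPM with ABT263 and 1031, 2179 and 1056 CPM with Vehicle (log2 fold change -0.23, SE 0.39). Rplp1 had 1194, 931 and 841 CPM with ABT263 and 897, 1902 and 955 CPM with Vehicle (log2 fold change -0.34, SE 0.38). Rplp2 had 394, 335 and 255 CPM with ABT263 and 304, 650 and 321 CPM with Vehicle (log2 fold change -0.37, SE 0.37). Summed over the 3 genes the libraries ran from 2104 to 3041 CPM with ABT263 and from 2233 to 4731 CPM with Vehicle, and the groups overlapped.

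**Figure D2:**
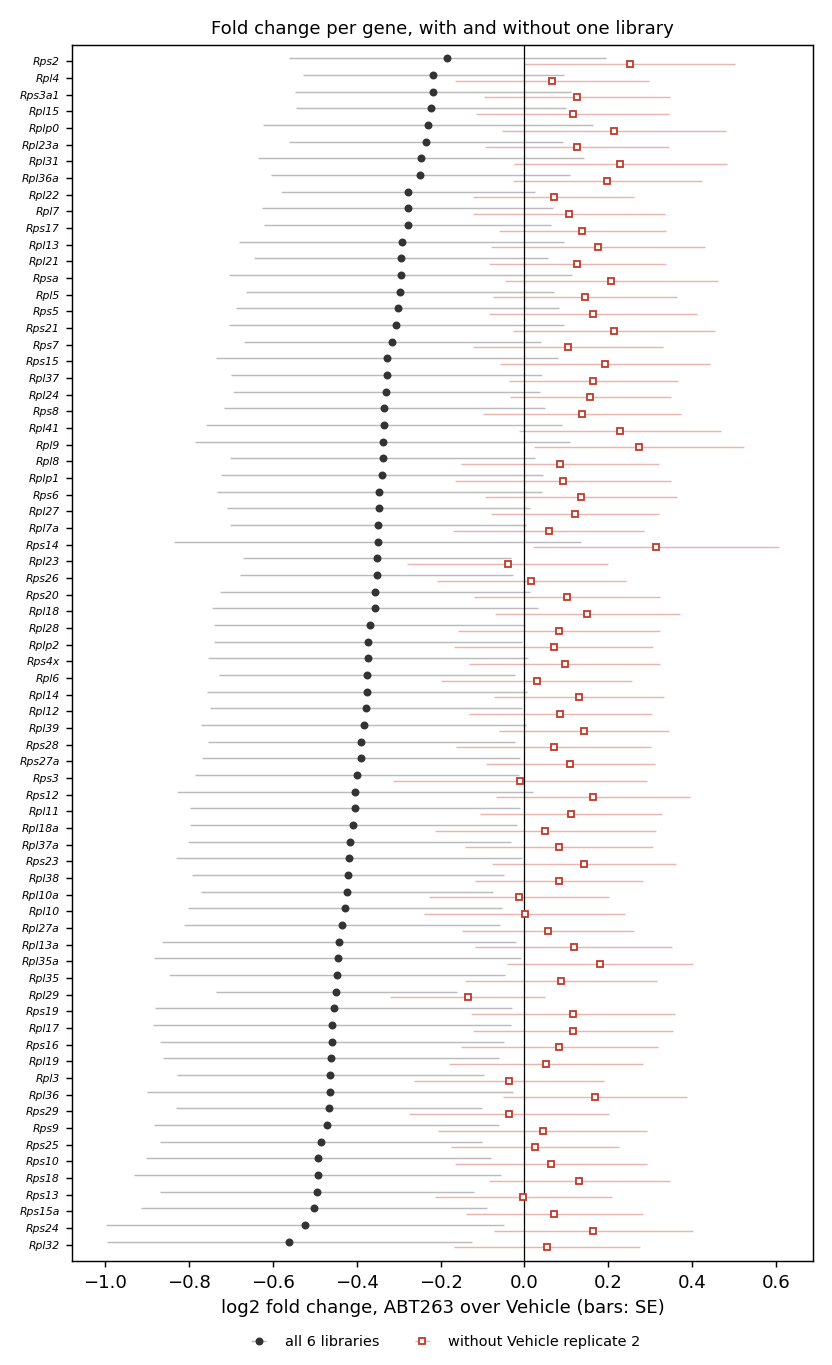
Log2 fold change (ABT263 over Vehicle, x axis) with its standard error for 72 canonical members at 10 CPM or more (rows), from the fit to all 6 libraries (filled circles) and from the fit without Vehicle replicate 2 (open squares). All 72 circles lie below 0, from -0.56 to -0.18, and 65 of the 72 squares lie above 0.

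Levels between genes were compared per length, as CPM per kb of the shortest principal transcript in GENCODE M21 (GRCm38, the assembly that mm10 denotes). Over the 73 genes of the block the level per kb ran from 129 to 2244 with a median of 694, and from 405 at the 10th to 1128 at the 90th percentile. The median was 736 CPM per kb for the small and 656 CPM per kb for the large subunit. Rplp1 (chromosome 9, 61913284 to 61914542) was highest at 2244 CPM per kb, followed by Rps12 at 1609 and Rpl41 at 1581. Rps20 was lowest of the 73 at 129 CPM per kb, measured against an annotated transcript of 3706 bases, the longest of the block. The genes are spread over 19 chromosomes, with 14 canonical members on chromosome 7 and 4 on the X chromosome.

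Of the 77 canonical genes, 4 were read at almost nothing. Rpl26 had 0 counts in all 6 libraries, which by counting error alone allows up to 0.0278 to 0.0480 CPM per library. This limit does not cover reads lost because they match several places. Rpl30 had 26, 23 and 14 counts with ABT263 and 17, 51 and 15 with Vehicle. Rpl34 had 0.771 to 1.41 CPM with ABT263 and 1.10 to 1.72 CPM with Vehicle. Rps27, with 0.827, 0.697 and 0.603 CPM with ABT263 and 0.848, 2.07 and 0.922 CPM with Vehicle, was the tested member whose groups did not overlap (log2 fold change -0.85, SE 0.50, edgeR adjusted p = 0.685), resting on 80, 47 and 43 counts with ABT263 and 53, 223 and 63 counts with Vehicle. The highest ABT263 library and the lowest Vehicle library were 0.827 and 0.848 CPM.

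Ribosomal protein genes have many processed copies in the genome, and reads that match several places can be lost or moved between genes. In the GENCODE transcripts, 71.3% of the 50-base words of the Rpl26 transcript also occurred in a transcript of another gene, 76.4% of those of Rpl30, 50.6% of those of Rpl34 and 98.6% of those of Rps27. The 73 genes read at 10 CPM or more ran from 0.0% to 95.1% with a median of 60.0%, so all of the 4 but Rps27 lay inside their range. The part of shared sequence in these low counts was not tested, and the rule used for reads with several matches is not given in the sources used here. Counts of genes with near-identical copies are uncertain in every library. The same holds for 39 members whose exons overlap those of another gene on either strand. Overlaps on opposite strands are included because the library kit does not mark the strand.

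**Figure D3:**
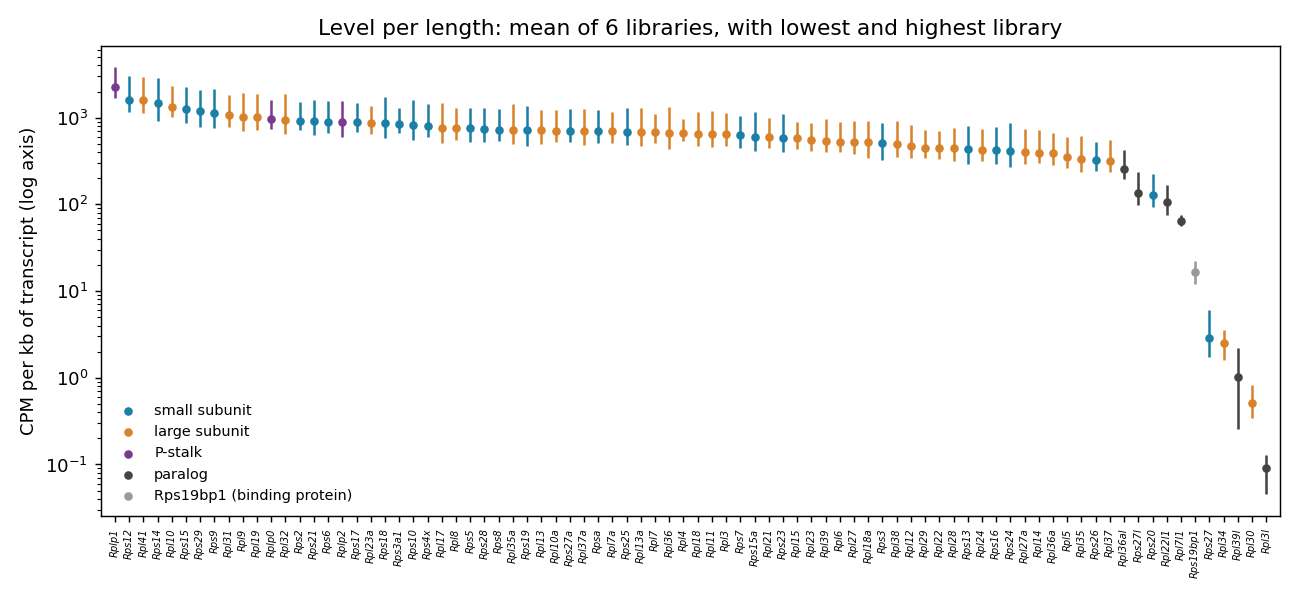
Level per length of members with a count above 0 and an annotated transcript, in CPM per kb (y axis, log scale), as the mean of 6 libraries (points) with the lowest and highest library (lines); genes are ordered along the x axis by their mean. The 72 canonical members of the block that are plotted lie between 129 and 2244 CPM per kb, while Rps27, Rpl34 and Rpl30 lie with the rare paralogs at the right.

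Paralogs were lower per length than the 10th percentile of the block, the highest being Rpl36al at 253, Rps27l at 137, Rpl22l1 at 105 and Rpl7l1 at 64.3 CPM per kb. Rpl22l1, a paralog of Rpl22 that is known to rise when Rpl22 is lost in mice, had 58.8, 61.6 and 41.9 CPM with ABT263 and 45.9, 91.2 and 49.5 CPM with Vehicle. Rpl22 had 215, 202 and 157 CPM with ABT263 and 177, 332 and 187 CPM with Vehicle. Per kb, Rpl22l1 came to 23.5%, 26.2% and 23.0% of Rpl22 in the ABT263 libraries and to 22.2%, 23.6% and 22.7% in the Vehicle libraries, a difference within the spread between libraries (24.2 ± 1.73% with ABT263 and 22.9 ± 0.68% with Vehicle, SD, n = 3 each). The log2 fold changes were -0.20 (SE 0.31) for Rpl22l1 and -0.28 (SE 0.30) for Rpl22.

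Rps27l, a paralog of Rps27 that p53 induces, had 74.7, 59.1 and 56.5 CPM with ABT263 and 49.0, 118 and 52.1 CPM with Vehicle. All ABT263 libraries lay above Vehicle replicates 1 and 3 and below replicate 2 (log2 fold change -0.21, SE 0.37, edgeR adjusted p = 0.931). Without Vehicle replicate 2 the fold change was 0.33 (SE 0.17, adjusted p = 0.626 by edgeR). Per kb, Rps27l was at 6244%, 5869% and 6481% of Rps27 with ABT263 and at 3998%, 3957% and 3906% with Vehicle. These ratios did not overlap between the groups, and they rest on the 43 to 223 counts of Rps27 per library. Rps27 was itself the 1 tested member whose groups did not overlap, so the ratios are not a separate result. With 98.6% of its 50-base words shared with other genes, they do not measure the paralog against its parent reliably. The share of such ratios over all genes was not computed. Rpl7l1, a paralog of Rpl7, departed from the block. It had 95.8, 77.2 and 73.9 CPM with ABT263 and 83.2, 97.5 and 77.6 CPM with Vehicle (log2 fold change -0.065, SE 0.18), with Vehicle replicate 2 only 1.02 times the next library. Rps4l, a paralog of Rps4x, had 5.44, 8.08 and 3.84 CPM with ABT263 and 3.41, 6.72 and 3.36 CPM with Vehicle (log2 fold change 0.36, SE 0.43), and its highest library was ABT263 replicate 2. With 1 library left out at a time its fold change ran from 0.045 without ABT263 replicate 2 to 0.77 without Vehicle replicate 2 (edgeR adjusted p = 0.626 for the second), and it was 0.45 without both.

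The remaining paralogs did not differ between the groups beyond the spread or were not tested. Rpl36al, a paralog of Rpl36a, had 145, 108 and 110 CPM with ABT263 and 108, 224 and 102 CPM with Vehicle, or 57.4% to 73.9% of Rpl36a per kb in the ABT263 libraries and 61.3% to 66.4% in the Vehicle libraries. Rpl39l, a testis-enriched gene, stayed at 0.14 to 1.20 CPM with ABT263 and 0.336 to 0.575 CPM with Vehicle. Rpl3l, the form of Rpl3 found in striated muscle, had 6, 7 and 8 counts with ABT263 and 10, 14 and 12 counts with Vehicle and was not tested. In CPM its groups did not overlap either, at 0.062, 0.104 and 0.112 with ABT263 and 0.160, 0.130 and 0.176 with Vehicle, on these few counts. Rpl10l, expressed in testis, and Rps27rt had 0 counts in all libraries. Rps19bp1 had 16.3, 12.7 and 12.9 CPM with ABT263 and 13.5, 18.4 and 10.2 CPM with Vehicle, with overlapping groups.

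Fau and Gnb2l1, ribosomal genes whose symbols escape the rule, were also highest in Vehicle replicate 2, and neither passed the test. Fau encodes a ubiquitin-like protein fused to a protein of the small subunit. It had 531, 426 and 366 CPM with ABT263 and 451, 1142 and 472 CPM with Vehicle, with overlapping groups (log2 fold change -0.64, SE 0.42, and -0.067 without Vehicle replicate 2). Gnb2l1, an older symbol of Rack1, a scaffold on the small subunit, had 1020, 749 and 661 CPM with ABT263 and 802, 1695 and 744 CPM with Vehicle (log2 fold change -0.42, SE 0.41).

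Lists of other parts of the translation machinery stood less far up in Vehicle replicate 2. A list's level in a library is the mean log2(CPM + 0.1) of its genes, given here relative to its mean over the 6 libraries. It was 0.10, -0.12 and -0.41 with ABT263 and -0.26, 0.90 and -0.21 with Vehicle for the 73 cytosolic ribosomal protein genes. For the 77 genes of the mitochondrial ribosome it was 0.091, 0.15 and -0.22 with ABT263 and -0.20, 0.47 and -0.30 with Vehicle. The level of Vehicle replicate 2 was 0.32 for 9 elongation factors, 0.15 for 29 initiation factors, 0.12 for 39 ribosome biogenesis genes and -0.13 for 21 genes of TOP binding and mTOR signalling.

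**Figure D4:**
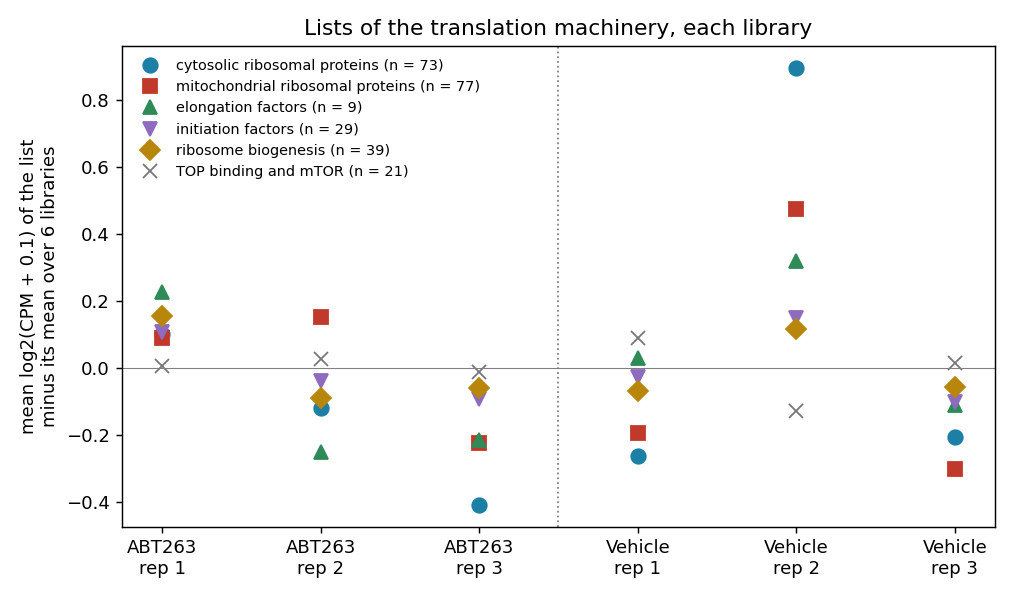
Mean log2(CPM + 0.1) of each list relative to its own mean over the 6 libraries (y axis), by library (x axis); n is the number of genes tested. In Vehicle replicate 2 the cytosolic ribosomal protein genes stand at 0.90, the mitochondrial ones at 0.47 and the other lists at 0.32 or below.

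By edgeR 0 genes of these lists passed the adjusted threshold. At an unadjusted p under 0.05 there were 0 of 77 mitochondrial ribosomal protein genes, 0 of 9 elongation factors, 0 of 29 initiation factors, 1 of 39 biogenesis genes (higher, against 4.70% of all genes) and 2 of 21 genes of TOP binding and mTOR signalling (lower, against 3.68% of all genes). These were Bysl, at a log2 fold change of 0.38, and Max and Rps6ka1, the last at -0.88, all named after their values had been seen. The median log2 fold change was -0.032 for the mitochondrial list, -0.22 for the elongation factors, -0.039 for the initiation factors, 0.027 for the biogenesis genes and 0.048 for TOP binding and mTOR signalling. Without Vehicle replicate 2 these medians were 0.0089 for the elongation factors (5 of 9 positive), 0.049 for the initiation factors, 0.063 for the biogenesis genes and 0.0042 for TOP binding and mTOR signalling. In the same fit 76 of the 77 mitochondrial ribosomal protein genes were positive with a median of 0.26, and 5 of them had an unadjusted p under 0.05, against 7.20% of all genes. Among all genes tested both with and without that library, 8200 of 15207 were positive in this fit. With ABT263 replicate 2 also left out, 74 of the 77 were positive with a median of 0.20. There 1 of the 77 had an unadjusted p under 0.05 by edgeR, against 1068 of 15122 genes of all kinds. Eef1a1, the factor that brings aminoacyl-tRNA to the ribosome and itself a TOP transcript, had 7133, 6201 and 5488 CPM with ABT263 and 6614, 10844 and 6118 CPM with Vehicle (log2 fold change -0.32, SE 0.44, and -0.023 without Vehicle replicate 2). Eef2, which moves the ribosome along, had 2324, 1938 and 1891 CPM with ABT263 and 2330, 2705 and 2144 CPM with Vehicle, with overlapping groups.

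Rn45s, the precursor of the ribosomal RNAs that the proteins join, was also highest in Vehicle replicate 2, and its groups did not overlap. It had 3144, 2839 and 3450 CPM with ABT263 and 5836, 17866 and 5511 CPM with Vehicle. Every ABT263 library was below every Vehicle library, without passing the adjusted threshold (log2 fold change -1.63, SE 0.60, edgeR adjusted p = 0.592, DESeq2 adjusted p = 0.0709), and without Vehicle replicate 2 the value was -0.85 (SE 0.33). The library kit selects polyadenylated RNA, which this precursor is not. Its part in the level of the ribosomal protein genes was not tested.

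As list sums, endothelial markers were lowest and macrophage markers highest in Vehicle replicate 2. The endothelial list, with all 6 genes detected, summed to 1611 to 4522 CPM with ABT263 and to 3077, 401 and 4480 CPM with Vehicle replicates 1 to 3. The macrophage list summed to 14634 CPM in Vehicle replicate 2, where 7 of its 10 markers were highest. T cell markers (8 of 8 detected) summed to 40.8 to 147.2 CPM with ABT263 and to 173, 202 and 204 CPM with Vehicle replicates 1 to 3, and B cell markers (7 of 7) to 30.9 to 85.1 CPM with ABT263 and to 183, 108 and 187 CPM with Vehicle replicates 1 to 3. Neither sum was at its extreme over the 6 libraries in Vehicle replicate 2. However, 6 of the 8 T cell markers were highest there. The mean log2(CPM + 0.1) of the T cell list was highest there too, at 4.42, against 3.86 and 4.13 in Vehicle replicates 1 and 3. Neutrophil markers were also highest in sum in Vehicle replicate 2, and 4 of the 5 tested ones were highest there singly. They summed to 84.6, 31.8 and 13.5 CPM with ABT263 and to 128, 173 and 57.7 CPM with Vehicle replicates 1 to 3. None of the markers in these lists was at 0 in all libraries. Their part in the level of the ribosomal protein genes was not tested.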

How the data were processed

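Raw counts per gene symbol were deposited by the authors as 1 table, made per the labels from RNA purified with the RNeasy Micro kit and the TruSeq RNA Library Prep Kit v2. Per the submitters' processing notes, which give no role or order, the tools were featureCounts 1.4.6 (with Subread), Bowtie2 2.2.6 and TopHat2 2.0.14, and the build was mm10. In R 4.3.3, edgeR 4.0.16 filtered genes (filterByExpr, minimum count 10, minimum total 15), scaled libraries by TMM and ran the quasi-likelihood F-test on group alone (4 residual degrees of freedom) over 15222 genes, with Benjamini-Hochberg adjustment and a threshold of 0.05. The SE is the absolute log2 fold change (ABT263 over Vehicle) divided by the square root of F. Alternatives included limma-voom (limma 3.58.1) and DESeq2 1.42.0. The test was tried on simulated data with the same dispersion for all genes and no library set apart. That trial does not show how the test behaves with a library like Vehicle replicate 2. Replicate numbers follow accession order and only name libraries. A gene at 0 counts may have up to 3, or 0.0278 to 0.0480 CPM, by counting error alone.

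The members and lists were chosen with earlier results of these data known. Named genes were, by a written rule, the 4 of smallest p in each direction, the 4 at each end of fold change at 10 CPM or more, the 3 at each end of level per kb, all paralogs, and genes listed outright. Rps14, Rps18, Rps20 and Rpl35 were named after their values or sequences had been seen. GENCODE M21 held 86 of the 87 members. Results for some genes are not reported here.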

Additional observations from a re-analysis of the deposited data

How the results depend on the processing

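The sign of the fold changes depended on Vehicle replicate 2. With each library left out in turn, the summed CPM of the members (log2, ABT263 over Vehicle) ran from -0.56 to 0.11, the small subunit median from -0.60 to 0.11 and the large subunit median from -0.56 to 0.11, each positive only without Vehicle replicate 2. Over the other alternatives that kept all libraries (RLE size factors, plain library totals, no filter, DESeq2, limma-voom, the canonical symbols alone, genes outside the symbol rule added, Rn45s left out of the totals) they stayed negative, and with ABT263 replicate 2 and Vehicle replicate 2 both left out they were 0.11, 0.11 and 0.091. No alternative called a member. The number of members whose groups did not overlap was 1 of the 83 tested, against 12.0% of all genes. It was 0 with plain library totals, 2 without the filter and 5 without that pair of libraries. With 1 library left out it ran from 1 to 15. It was 15 without ABT263 replicate 1, 4 without Vehicle replicate 2 and 1 without Vehicle replicate 1. Leaving out ABT263 replicate 2, ABT263 replicate 3 or Vehicle replicate 3 gave 2. Without Vehicle replicate 2 the groups did not overlap for 13.9% of all genes (higher with ABT263) and 14.3% (lower). The share over all genes was not computed for the other alternatives, so their counts cannot be set against it.

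Of the 23 named genes followed over all fits, 16 turned positive without Vehicle replicate 2. The ranges and values below cover these 23 only. Other named genes also turned positive without that library, such as Rpl13a (0.12) and Rpl36al (0.20). Fold changes over the fits that left out 1 library, for genes that changed sign in any of them, were Gnb2l1 -0.63 to 0.066, Rpl11 -0.62 to 0.11, Rpl22 -0.44 to 0.070, Rpl22l1 -0.38 to 0.18, Rpl32 -0.80 to 0.054, Rpl5 -0.49 to 0.15, Rpl7l1 -0.19 to 0.032, Rplp0 -0.42 to 0.21, Rplp1 -0.53 to 0.092, Rps14 -0.61 to 0.31, Rps19 -0.70 to 0.12, Rps2 -0.38 to 0.25, Rps24 -0.79 to 0.16, Rps27l -0.43 to 0.33, Rps6 -0.55 to 0.13, Rpsa -0.50 to 0.21. With both replicates 2 left out the values that changed sign were Rpl32 0.097, Rps24 0.14, Rps13 0.0023, Rps2 0.27, Rps14 0.16, Rpsa 0.20, Rps6 0.12, Rps19 0.11, Rpl5 0.10, Rpl11 0.086, Rplp0 0.24, Rplp1 0.14, Rpl22 0.031, Rpl22l1 0.080, Rps27l 0.38, Rpl7l1 0.078, Gnb2l1 0.12. Rpl7l1 also changed sign with plain library totals (0.030) and without ABT263 replicate 3 (0.0052). Overlap counts and sums were not recomputed for DESeq2 and limma-voom, which bring no other scaling of their own here than RLE and TMM. No paired analysis was possible because the labels give no replicate numbers. With 3 libraries a group and 1 of them far above the rest, the standard errors of the block were 0.29 to 0.49 on the log2 scale. The SDs of the block and of its members without Vehicle replicate 2 were added after the data had been seen.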

Other observations

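The symbol rule leaves out 7 pseudogene symbols of this family, of which 5 had counts. All 5 were highest in Vehicle replicate 2. Rpl14-ps1 had 6.12, 6.26 and 4.10 CPM with ABT263 and 4.70, 11.7 and 4.18 CPM with Vehicle. Rps15a-ps4 had 2.82, 2.10 and 1.65 CPM with ABT263 and 1.82, 4.30 and 1.76 CPM with Vehicle. Reads of such copies cannot be told apart from reads of the parent gene where their sequences are identical.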
